A study of Homo sapiens with 4 samples.

Results

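Alpha-ketoglutarate-dependent dioxygenases are enzymes that spend alpha-ketoglutarate, a product of glutamate dehydrogenase, to oxidise a methyl group, a protein side chain or a small molecule. They were read from a gene table by symbol, and all 43 symbols on the list were found among its 57820 genes. The list was divided by substrate into 15 histone demethylases, 12 DNA and RNA demethylases with the other AlkB homologues, 13 protein hydroxylases and 3 small-molecule hydroxylases. RNA was sequenced from cells of one established human renal carcinoma line, known to lack working VHL. There were 2 libraries from cells labelled with a short hairpin RNA against GLUD1 (shGLUD1) and 2 from cells with a non-targeting hairpin (shNT). Cells of both groups had been kept without amino acids for 12 h, so no fed cells were compared, and the labels do not say how many hairpin sequences or clones each group holds.

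These enzymes bind iron and split oxygen, using one atom for the substrate and the other for turning alpha-ketoglutarate into succinate. Succinate and fumarate compete with alpha-ketoglutarate for the active site, so their activity is known to follow oxygen, iron and the mitochondrial acid pool as well as protein amount. In renal carcinoma the class is best known through the EGLN prolyl hydroxylases, which mark HIF-alpha subunits for the VHL ubiquitin ligase that this line lacks. Transcript levels, as measured here, say nothing of enzyme activity or of the metabolites.

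GLUD1, the target of the hairpin, stood at 13.52 and 19.82 TPM (transcript share of the library, scaled to a fixed total) in the libraries labelled shGLUD1 and at 18.09 and 17.43 TPM in the shNT libraries. Replicate 2 of shGLUD1 was therefore above both shNT libraries, and the log2 fold change was -0.11 (limma adjusted p = 0.631), so GLUD1 RNA did not check the label on the deposited scale. After the rescaling described next it was lower in both shGLUD1 libraries, with a log2 fold change of -0.84 (adjusted p = 0.00201), so whether GLUD1 passed as lower depends on the scale. The log2 fold changes are on TPM + 1 and run shGLUD1 minus shNT. Their median over the 12524 genes tested was 0.63, so a typical gene stood higher in the libraries labelled shGLUD1 on the deposited scale. Most changes of members are therefore also given after median-ratio rescaling, which brings that median to -0.01 (log2 size factors of 0.28 and 0.50 for shGLUD1, and of -0.40 and -0.38 for shNT). A gene is said to have risen or fallen only where limma's adjusted p over all genes tested was under 0.05. Of 10 markers of kidney epithelium and renal carcinoma, 7 were tested, 4 of them higher and 2 lower on TPM, while PAX2, CDH6 and LHX1 were at or near 0. Of 4 tubule markers, LRP2, CUBN and SLC34A1 were near 0. AQP1 fell, with 1.45 and 1.59 TPM in shGLUD1 and 4.97 and 4.46 TPM in shNT (log2 fold change -1.18, adjusted p = 0.0014; -1.73 after rescaling). Summed endothelial markers were 0.41 and 0.25 TPM in shGLUD1 and 0.11 and 0.19 TPM in shNT. Summed leukocyte markers were 0.14 and 0.73 TPM in shGLUD1 and 1.30 and 1.68 TPM in shNT. Summed fibroblast markers were 28.61 and 33.63 TPM in shGLUD1 and 15.26 and 18.37 TPM in shNT, with 2 of 4 tested higher and none lower. The part of these in the results below was not tested.

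The promoters of 6 members are shown because the results turn on them: the largest rise in each of the 3 large classes (KDM5B, FTO, OGFOD1), the one member that fell on the deposited scale (ALKBH7), and the 2 collagen hydroxylases that rose on both scales and hold a hypoxia response core (P4HA1, PLOD2). Each runs 5′ to 3′ on the gene's strand, from 250 bases before to 50 after the RefSeq start in GRCh38.p14. Capitals mark ACGTG, a form of the core of the hypoxia response element, or GGGCGG, the GC box, on either strand. Other forms of that core, such as GCGTG, were not searched or marked. The windows are chr1:202808372-202808671 (minus strand) for KDM5B, chr16:53703906-53704205 (plus) for FTO, chr16:56451274-56451573 (plus) for OGFOD1, chr19:6372544-6372843 (plus) for ALKBH7, chr10:73096817-73097116 (minus) for P4HA1 and chr3:146161135-146161434 (minus) for PLOD2.
KDM5B: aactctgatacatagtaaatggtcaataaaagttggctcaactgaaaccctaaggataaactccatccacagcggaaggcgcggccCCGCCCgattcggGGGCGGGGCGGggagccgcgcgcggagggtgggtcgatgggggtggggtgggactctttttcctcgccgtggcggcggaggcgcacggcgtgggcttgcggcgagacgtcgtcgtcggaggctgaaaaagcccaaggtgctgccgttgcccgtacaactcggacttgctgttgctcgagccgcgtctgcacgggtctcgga
FTO: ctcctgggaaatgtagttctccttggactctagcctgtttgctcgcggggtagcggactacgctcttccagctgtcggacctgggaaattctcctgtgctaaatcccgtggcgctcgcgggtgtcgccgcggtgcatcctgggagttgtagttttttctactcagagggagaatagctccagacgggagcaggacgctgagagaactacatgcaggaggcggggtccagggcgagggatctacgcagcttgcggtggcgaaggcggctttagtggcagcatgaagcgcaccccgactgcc
OGFOD1: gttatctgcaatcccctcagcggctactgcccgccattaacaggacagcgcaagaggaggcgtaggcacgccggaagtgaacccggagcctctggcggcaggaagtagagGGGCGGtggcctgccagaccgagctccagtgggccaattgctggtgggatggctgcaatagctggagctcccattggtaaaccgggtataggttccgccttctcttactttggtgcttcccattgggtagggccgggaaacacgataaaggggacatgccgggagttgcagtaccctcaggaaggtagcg
ALKBH7: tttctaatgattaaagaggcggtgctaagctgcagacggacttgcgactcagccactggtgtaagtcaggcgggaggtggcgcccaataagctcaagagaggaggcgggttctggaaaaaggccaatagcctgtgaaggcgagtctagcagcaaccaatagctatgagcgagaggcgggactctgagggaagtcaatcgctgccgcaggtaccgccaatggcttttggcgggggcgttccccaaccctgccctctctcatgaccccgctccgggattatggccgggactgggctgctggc
P4HA1: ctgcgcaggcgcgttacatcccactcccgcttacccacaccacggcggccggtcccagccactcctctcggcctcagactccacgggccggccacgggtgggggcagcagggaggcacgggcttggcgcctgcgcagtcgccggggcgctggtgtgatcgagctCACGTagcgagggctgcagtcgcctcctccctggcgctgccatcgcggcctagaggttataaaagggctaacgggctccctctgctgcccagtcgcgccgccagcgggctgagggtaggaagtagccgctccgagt
PLOD2: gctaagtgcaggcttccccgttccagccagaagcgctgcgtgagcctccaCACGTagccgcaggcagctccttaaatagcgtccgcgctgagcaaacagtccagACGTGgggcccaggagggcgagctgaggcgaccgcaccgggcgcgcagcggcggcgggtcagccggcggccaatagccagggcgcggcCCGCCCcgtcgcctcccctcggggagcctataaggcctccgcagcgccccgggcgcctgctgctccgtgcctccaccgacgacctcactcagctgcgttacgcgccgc
The PLOD2 window holds ACGTG 2 times and the GC box 1 time, and the P4HA1 window holds ACGTG 1 time. The KDM5B window holds the GC box 3 times, with 2 of the 3 sharing a letter, and the OGFOD1 window holds it 1 time. The FTO and ALKBH7 windows hold neither run of letters, which says nothing of any factor's binding. Among the 40 members with a promoter entry, 9 (22.5%) hold ACGTG, against 21.4% of all 27305 promoters of the same length. GGGCGG is in 25 of the 40 (62.5%), against 43.8% of all promoters, and the member promoters are also richer in CpG, with a median of 23.5 CpG against 13 over all. ACGTG stands in 2 of the 10 members with an entry that rose on both scales and in 0 of the 7 with an entry that fell after rescaling.

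The class spanned levels from 0 to 322.33 TPM, and its abundant members were few. ALKBH7, a mitochondrial AlkB homologue with a part in programmed necrosis, was the highest member in every library, with 251.2 and 222.62 TPM in shGLUD1 and 287.36 and 322.33 TPM in shNT. PLOD1, a collagen lysyl hydroxylase, and EGLN2, a HIF prolyl hydroxylase, came next. PLOD1 stood at 188.41 and 209.3 TPM in shGLUD1 and at 171.57 and 171.43 TPM in shNT. EGLN2 stood at 183.27 and 178.64 TPM in shGLUD1 and at 116.43 and 132.42 TPM in shNT. The order of these neighbours was the same in all 4 libraries, and in shGLUD1 replicate 1 they were nearly level. P4HA2, PLOD3, JMJD6, ASPH, ALKBH2, ALKBH3, ALKBH5 and ALKBH6 followed at between 18.23 and 97.85 TPM. Every histone demethylase lay lower, with 15.16 TPM for KDM2A in shGLUD1 replicate 2 as the highest value in that class.

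**Figure D1:**
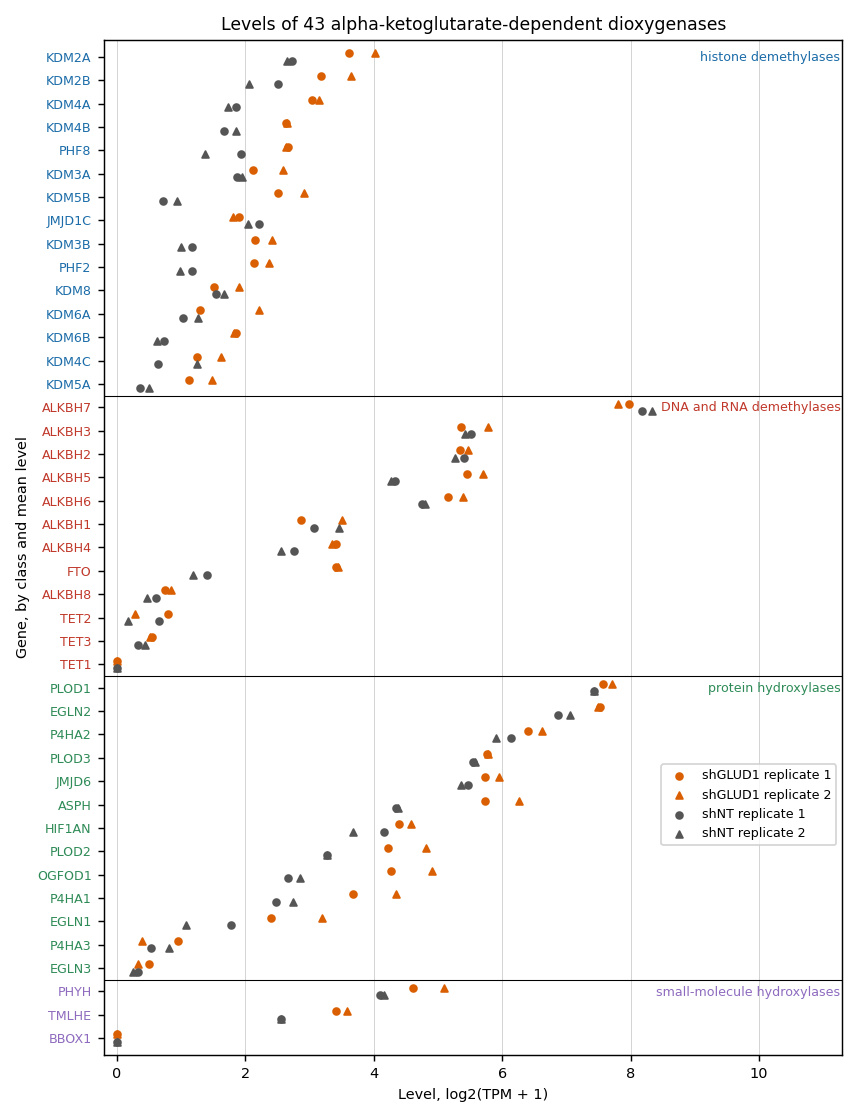
Levels of the 43 members, as log2(TPM + 1) on the horizontal axis, with one row per gene ordered by class and mean level. Orange marks are the libraries labelled shGLUD1 and grey marks the shNT libraries, with circles for replicate 1 and triangles for replicate 2. ALKBH7 lies to the left in shGLUD1, at 251.2 and 222.62 TPM against 287.36 and 322.33 TPM in shNT, while FTO, KDM5B and OGFOD1 lie well to the right of their shNT marks.

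A group of 8 members averaged under 1 TPM over the libraries and was not tested. TET1, which oxidises methylcytosine in DNA, and BBOX1, the last enzyme of carnitine synthesis, were listed at 0 in every library. The other methylcytosine oxidases were scarce too, TET2 at 0.73 and 0.22 TPM in shGLUD1 and 0.57 and 0.13 TPM in shNT, and TET3 at 0.46 and 0.43 TPM in shGLUD1 and 0.25 and 0.35 TPM in shNT. EGLN3, the HIF prolyl hydroxylase whose gene is itself a HIF target, stayed between 0.19 and 0.41 TPM, and P4HA3 between 0.31 and 0.93 TPM. ALKBH8, a tRNA-modifying enzyme, lay between 0.38 and 0.79 TPM. KDM5A missed the minimum narrowly, with a mean of 0.91 TPM. It had 1.18 and 1.78 TPM in shGLUD1 and 0.28 and 0.41 TPM in shNT, and in a fit without the minimum its log2 fold change was 0.87 (limma adjusted p = 0.0446). The table keeps no read totals, so the depth behind a listed 0 is unknown.

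Of the 35 members tested, 24 rose, 1 fell and 10 did not pass on the deposited scale. Over all genes tested, 56.7% rose and 7.77% fell, against 68.6% and 2.86% of the members, so the members' count of rises lay near that of the table as a whole. Their median log2 fold change was 0.73, against 0.63 for all genes, and 19 of the 35 lay above that median. Both shGLUD1 libraries lay above both shNT libraries in 28 members (69.9% of all genes) and below them in 2 (13.5% of all genes), and the groups overlapped in 5. After rescaling, 11 rose, 8 fell and 16 did not pass, with 22.7% higher and 28.4% lower over all genes, and the members' median was 0.12. The count of 11 was 6 without shNT replicate 2 or without shGLUD1 replicate 2. All 11 had also risen on TPM. Another 12 rose on TPM and did not pass after rescaling, 6 that had not passed fell after it, and JMJD6 changed sides. The fall of JMJD6 was lost whichever library was left out, and those of JMJD1C and ALKBH1 in part of such fits. ALKBH7 fell on both scales, and 4 members passed on neither. In bulk RNA, fewer cells of a kind and less RNA per cell cannot be told apart, and since the labels name no separate cultures, the p-values cover only how these 4 libraries differ, which can be technical.

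**Figure D2:**
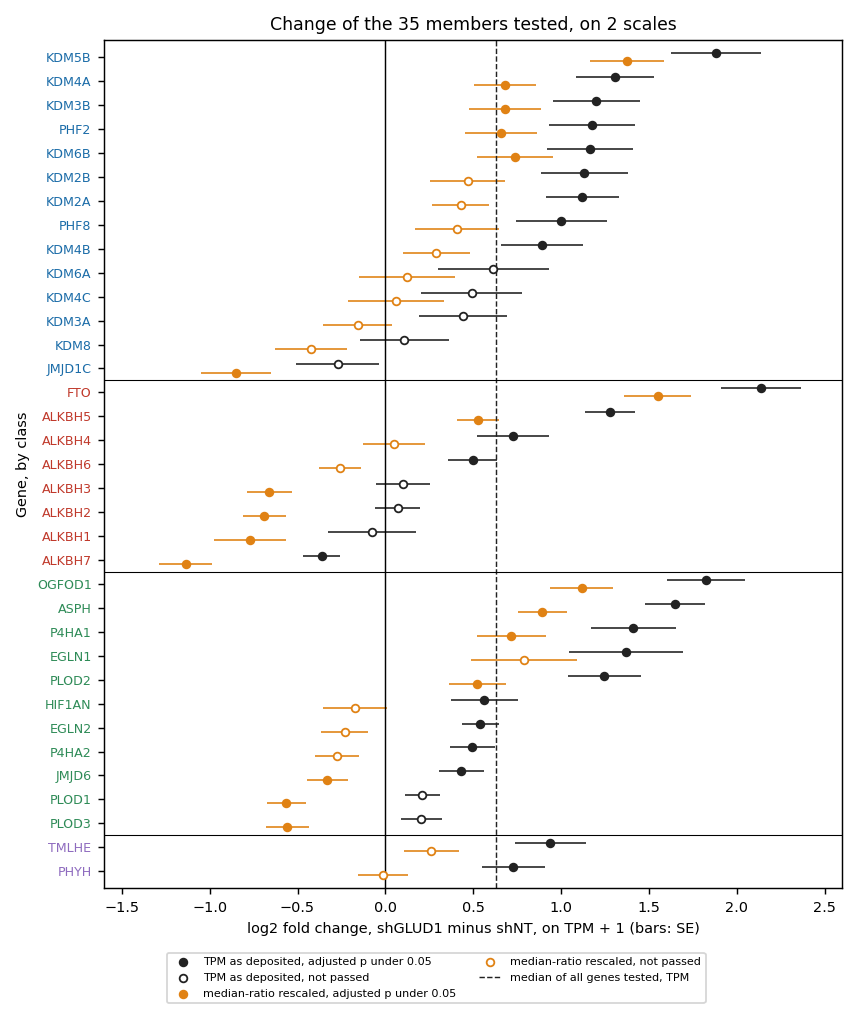
Log2 fold change of the 35 members tested, shGLUD1 minus shNT, on TPM + 1, with SE bars. Black marks are values as deposited and orange marks values after median-ratio rescaling; filled marks passed an adjusted p of 0.05, and the dashed line is the median of all genes, 0.63. FTO (2.14) and KDM5B (1.88) stand farthest right, and ALKBH7 (-0.36 and -1.14) is the one member filled to the left of 0 on both scales.

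Of 14 histone demethylases tested, 9 rose (64.3%, against 56.7% of all genes) and none fell on TPM, with a median log2 fold change of 1.06. After rescaling 5 rose (35.7%, against 22.7%), 1 fell (7.14%, against 28.4%) and the median was 0.42. That count of 5 was 1 without shNT replicate 2 or without shGLUD1 replicate 1, and 2 without shGLUD1 replicate 2. Their summed level was 63.03 and 80.37 TPM in shGLUD1 and 31.72 and 29.66 TPM in shNT. The 5 that rose on both scales act on methylated lysines of histone tails, and removing or keeping those methyl marks is tied to both silencing and activity of genes.

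KDM5B (ENSG00000117139, chromosome 1, 202724495 to 202809470, minus strand), an eraser of the trimethyl mark of active promoters, showed the largest rise of the class. It had 4.68 and 6.52 TPM in shGLUD1 and 0.64 and 0.92 TPM in shNT. Both shGLUD1 libraries lay far above both shNT libraries, with a 7.18-fold ratio of means. The log2 fold change was 1.88 ± 0.26 (SE; adjusted p = 0.000138, limma) and stayed at 1.38 after rescaling (adjusted p = 0.000988). KDM6B, which removes the repressive trimethyl mark laid down by Polycomb, had 2.61 and 2.55 TPM in shGLUD1 and 0.66 and 0.54 TPM in shNT. Its log2 fold change was 1.16 (SE 0.24, adjusted p = 0.00186), and 0.74 after rescaling (adjusted p = 0.0204). Its relative KDM6A, which removes the same mark, had 1.45 and 3.63 TPM in shGLUD1 and 1.03 and 1.39 TPM in shNT and did not pass (limma adjusted p = 0.109).

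KDM4A, an eraser of trimethyl marks of heterochromatin and of transcribed gene bodies, had 7.25 and 7.87 TPM in shGLUD1 and 2.61 and 2.32 TPM in shNT. On TPM the log2 fold change came to 1.31 ± 0.22 (SE; adjusted p = 0.000529, limma), and 0.68 after rescaling (adjusted p = 0.0124). Of its exon bases, 40.2% are shared with another annotated gene on the same strand, not analysed here, so the value may hold reads of both. KDM3B, a demethylase of the repressive dimethyl mark, had 3.42 and 4.35 TPM in shGLUD1 and 1.25 and 0.99 TPM in shNT. This gave a log2 fold change of 1.20 (SE 0.25, adjusted p = 0.00171), and 0.68 after rescaling (adjusted p = 0.0223). PHF2, a plant homeodomain protein of the same fold, had 3.4 and 4.16 TPM in shGLUD1 and 1.25 and 0.98 TPM in shNT. The change on the log2 scale was 1.17 (SE 0.25, adjusted p = 0.00186), and 0.66 after rescaling (adjusted p = 0.0257). In all of these the groups did not overlap.

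KDM2A and KDM2B, demethylases that bind CpG islands through a zinc finger, rose on TPM with log2 fold changes of 1.12 and 1.13 but missed the threshold after rescaling, at 0.43 (limma adjusted p = 0.0512) and 0.47 (adjusted p = 0.0927). KDM2A had 11.2 and 15.16 TPM in shGLUD1 and 5.64 and 5.28 TPM in shNT, and KDM2B had 8.01 and 11.54 TPM in shGLUD1 and 4.67 and 3.15 TPM in shNT. The same held for KDM4B, a relative of KDM4A, and for PHF8, an eraser of repressive dimethyl marks, which had log2 fold changes of 0.89 and 1.00 on TPM and of 0.29 and 0.41 after rescaling. The call on TPM was lost without shNT replicate 1 for KDM4B and without shNT replicate 2 for PHF8. JMJD1C, a relative of KDM3A and KDM3B, stood apart from the class. It had 2.72 and 2.5 TPM in shGLUD1 and 3.62 and 3.11 TPM in shNT, the one histone demethylase whose shGLUD1 libraries both lay below both shNT libraries. The log2 fold change of -0.27 ± 0.24 did not pass (SE; adjusted p = 0.327, limma), whereas after rescaling it was -0.85 (SE 0.20, adjusted p = 0.00759). KDM3A, KDM4C, KDM6A and KDM8 passed on neither scale. KDM3A, a demethylase of the repressive dimethyl mark, had 3.32 and 4.99 TPM in shGLUD1 and 2.64 and 2.85 TPM in shNT. In KDM4C, with 1.37 TPM in shGLUD1 replicate 1 and in shNT replicate 2, and in KDM8, with 1.85 and 2.73 TPM in shGLUD1 and 1.9 and 2.16 TPM in shNT, the groups overlapped.

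The DNA and RNA demethylases held calls in both directions on each scale, as did all genes tested. Of 8 tested, 4 rose, 1 fell and 3 did not pass on TPM, where 56.7% of all genes rose and 7.77% fell. After rescaling 2 rose and 4 fell, where 22.7% of all genes rose and 28.4% fell. The class medians were 0.30 and -0.46 on the 2 scales, against 0.63 and -0.01 for all genes. Whether the class differs from all genes was not tested. The risers on both scales were FTO and ALKBH5, the enzymes known to remove methyl groups from adenosine in messenger RNA. The summed level of the class overlapped between groups, at 435.12 and 442.63 TPM in shGLUD1 and 434.25 and 463.78 TPM in shNT. ALKBH7 alone made up 57.9% and 50.4% of the summed FTO and AlkB transcripts in shGLUD1 and 66.3% and 69.6% in shNT.

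FTO (ENSG00000140718, chromosome 16, 53701692 to 54158512, plus strand) had 9.61 and 9.84 TPM in shGLUD1 and 1.63 and 1.26 TPM in shNT. The groups lay far apart and the libraries within each were close, giving a 6.73-fold ratio of means. The log2 fold change was 2.14 ± 0.23 (SE; adjusted p = 3.25e-05, limma), and 1.55 after rescaling (adjusted p = 0.000379). On TPM + 1 this was above KDM5B, while with a pseudocount of 0.1 KDM5B (2.69) and FTO (2.68) were level. ALKBH5 had 42.76 and 51.12 TPM in shGLUD1 and 19.17 and 18.23 TPM in shNT. Its log2 fold change was 1.28 ± 0.14 (SE; adjusted p = 4.42e-05, limma), and 0.53 after rescaling (adjusted p = 0.0069). ALKBH5 was the more abundant of the pair in every library, and the share of FTO in their summed TPM was 18.4% and 16.1% in shGLUD1 and 7.84% and 6.47% in shNT.

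ALKBH7 (ENSG00000125652, chromosome 19, 6372433 to 6375251, plus strand) was the one member that fell on TPM. On TPM the log2 fold change came to -0.36 ± 0.10 (SE; adjusted p = 0.0103, limma), and -1.14 after rescaling (adjusted p = 0.000538). On the deposited scale the call was lost without shNT replicate 2 (adjusted p = 0.125) or without shGLUD1 replicate 2 (adjusted p = 0.0764), and after rescaling it held without each library in turn. With trends in length and GC content removed on TPM its log2 fold change was 0.093, so the direction on that scale depends on the correction, while with rescaling added it was -0.63 (adjusted p = 0.00426). ALKBH2 and ALKBH3 repair alkylated bases in DNA, and ALKBH3 also acts on RNA. ALKBH2 had 39.44 and 43.23 TPM in shGLUD1 and 41.15 and 37.55 TPM in shNT, and ALKBH3 had 39.91 and 54.07 TPM in shGLUD1 and 44.59 and 42.06 TPM in shNT. In both the groups overlapped on TPM, and after rescaling they fell, with log2 fold changes of -0.69 (adjusted p = 0.00194) and -0.66 (adjusted p = 0.00291). ALKBH1, which acts on methylated DNA and transfer RNA, had 6.25 and 10.34 TPM in shGLUD1 and 7.38 and 9.93 TPM in shNT. Its groups overlapped as well, and it was at -0.77 after rescaling (adjusted p = 0.013). ALKBH4, known to act on actin, and ALKBH6 rose on TPM alone, with log2 fold changes of 0.73 and 0.50 that were 0.05 and -0.26 after rescaling. Of ALKBH4's exon bases, 25.3% lie opposite ORAI2, which stood at 27.73 and 30.25 TPM in shGLUD1 and 13.57 and 11.76 TPM in shNT. The library kit does not mark strand and the counting method is not given in the sources used here, so reads of the pair cannot be told apart.

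The protein hydroxylases moved one way on TPM and both ways after rescaling. Of 11 tested, 9 rose (81.8%, against 56.7% of all genes) and none fell on TPM. Without shGLUD1 replicate 2 the count of rises was 5, and without shNT replicate 2 it was 6. In all 11 both shGLUD1 libraries lay above both shNT libraries (69.9% over all genes), with a median log2 fold change of 0.56 that was below that of all genes. After rescaling 4 rose (36.4%, against 22.7% of all genes), 3 fell (27.3%, against 28.4%) and the median was -0.17. Without shGLUD1 replicate 2 these counts were 2 and 2. Their summed level was 686.51 and 783.26 TPM in shGLUD1 and 504.24 and 503.75 TPM in shNT.

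The HIF hydroxylases tested, EGLN1, EGLN2 and HIF1AN, all rose on TPM and passed in neither direction after rescaling. EGLN1, regarded as the main oxygen sensor of the EGLN enzymes, had 4.27 and 8.18 TPM in shGLUD1 and 2.44 and 1.11 TPM in shNT. This gave a log2 fold change of 1.37 ± 0.32 (SE; adjusted p = 0.00378, limma). The libraries of each group differed widely, the call was lost without shGLUD1 replicate 2 (adjusted p = 0.0683), and after rescaling the value was 0.79 (adjusted p = 0.0547). EGLN2 rose by 0.54 ± 0.10 on the log2 scale of TPM (SE; adjusted p = 0.00117, limma) and was at -0.23 after rescaling (adjusted p = 0.168). It made up 97.5% and 95.5% of the summed EGLN transcripts in shGLUD1 and 97.7% and 99.0% in shNT. A readthrough gene shares 30.6% of its exon bases, but that gene had no more than 8.75 TPM in any library. HIF1AN, the asparagine hydroxylase that blocks coactivator binding to HIF, had a log2 fold change of 0.56 ± 0.19 (SE; adjusted p = 0.0234, limma) and of -0.17 after rescaling (adjusted p = 0.44). Its libraries stood at 19.91 and 22.82 TPM in shGLUD1 and 16.92 and 11.76 TPM in shNT, and the call on TPM was lost when any of 3 of the 4 libraries was left out.

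The collagen hydroxylases work in the endoplasmic reticulum, where prolyl hydroxylation steadies the collagen helix and lysyl hydroxylation prepares its cross-links. P4HA1, a catalytic subunit of collagen prolyl hydroxylase, had 11.83 and 19.39 TPM in shGLUD1 and 4.55 and 5.67 TPM in shNT. The change on the log2 scale was 1.41 ± 0.24 (SE; adjusted p = 0.000556, limma), and 0.72 after rescaling (adjusted p = 0.0147). PLOD2, the lysyl hydroxylase of collagen ends, had 17.67 and 26.98 TPM in shGLUD1 and 8.63 and 8.64 TPM in shNT. Its log2 fold change was 1.25 ± 0.21 (SE; adjusted p = 0.00045, limma), and 0.52 after rescaling (adjusted p = 0.0252). Their promoters were printed above because the genes rose on both scales and hold ACGTG, so that motif is no separate result. In both genes shGLUD1 replicate 2 was the higher of its group. The median over all genes tested was also higher in that library (11.625 TPM, against 9.82 TPM in shGLUD1 replicate 1). P4HA2, the more abundant prolyl hydroxylase subunit, rose by 0.49 on the log2 scale of TPM (adjusted p = 0.00627) and was at -0.27 after rescaling (adjusted p = 0.0982). PLOD1 and PLOD3 missed the threshold on TPM, at 0.21 (adjusted p = 0.0837) and 0.20 (adjusted p = 0.147). After rescaling both fell, PLOD1 with a log2 fold change of -0.56 (adjusted p = 0.00361) and PLOD3 with one of -0.56 (adjusted p = 0.0054). PLOD3 had 53.09 and 53.8 TPM in shGLUD1 and 45.93 and 46.57 TPM in shNT.

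The remaining protein hydroxylases act on other targets. OGFOD1 (ENSG00000087263, chromosome 16, 56451490 to 56479100, plus strand), which hydroxylates a proline of the small ribosomal subunit, had 18.28 and 28.89 TPM in shGLUD1 and 5.35 and 6.23 TPM in shNT. The ratio of means was 4.07-fold, and the log2 fold change was 1.82 ± 0.22 (SE; adjusted p = 7e-05, limma) and 1.12 after rescaling (adjusted p = 0.00117). ASPH, which hydroxylates aspartate and asparagine in growth-factor-like domains of secreted proteins, had 52.39 and 76.15 TPM in shGLUD1 and 19.25 and 19.79 TPM in shNT. On TPM the log2 fold change came to 1.65 ± 0.17 (SE; adjusted p = 2.83e-05, limma), and 0.89 after rescaling (adjusted p = 0.00107). The ASPH locus also makes junctin-type transcripts that lack the catalytic domain, and a gene-level value cannot separate them. JMJD6, a lysyl hydroxylase of splicing proteins, had 52.41 and 60.69 TPM in shGLUD1 and 43.04 and 40.21 TPM in shNT. It rose by 0.43 ± 0.13 on the log2 scale of TPM (SE; adjusted p = 0.0126, limma) and fell after rescaling, with a log2 fold change of -0.33 (adjusted p = 0.0411). That fall was lost whichever library was left out, with log2 fold changes from -0.39 to -0.27. Quantile normalization gave -0.0355 (limma adjusted p = 0.799).

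The small-molecule hydroxylases rose on TPM and passed in neither direction after rescaling. PHYH, which starts the peroxisomal breakdown of phytanic acid, had 23.42 and 33.09 TPM in shGLUD1 and 16.03 and 16.81 TPM in shNT. This gave a log2 fold change of 0.73 ± 0.18 (SE; adjusted p = 0.00451, limma), and -0.01 after rescaling. TMLHE, the first enzyme of carnitine synthesis, had 9.6 and 10.97 TPM in shGLUD1 and 4.85 and 4.9 TPM in shNT. The change on the log2 scale was 0.94 ± 0.20 (SE; adjusted p = 0.00214, limma), and 0.26 after rescaling (adjusted p = 0.191).

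Of the 11 members that rose on both scales, KDM5B, ALKBH5, FTO, ASPH and OGFOD1 kept the call on both when each library was left out in turn. Their log2 fold changes over these fits ran from 1.68 to 2.08 for KDM5B, 1.15 to 1.40 for ALKBH5, 2.03 to 2.25 for FTO, 1.38 to 1.91 for ASPH and 1.51 to 2.14 for OGFOD1. The other 6 kept it on TPM in all 4 fits but lost it after rescaling in at least 1 of 4: KDM3B, KDM4A and PHF2 were called in 1 of 4, KDM6B and PLOD2 in 2 of 4 and P4HA1 in 3 of 4. Under quantile normalization KDM3B (limma adjusted p = 0.0585), KDM6B (adjusted p = 0.0636) and PHF2 (adjusted p = 0.0669) missed the threshold.

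Ratios of relatives within one library do not depend on how libraries are scaled to each other, although they still depend on length and base composition. Each tested member was set over the relative that was most abundant in shNT, giving 12 pairs. In 8 of them both shGLUD1 ratios lay above both shNT ratios. Picking the reference by its shNT level favours higher ratios in shGLUD1. JMJD1C, for example, was the most abundant of its family in shNT (mean 3.365 TPM) and the least abundant in shGLUD1 (mean 2.61 TPM). No matching share over all genes was computed, so the count of 8 is not a result about the members. FTO over ALKBH5 was 0.225 and 0.193 in shGLUD1 and 0.0850 and 0.0691 in shNT. KDM3B over JMJD1C was 1.26 and 1.74 in shGLUD1 and 0.345 and 0.318 in shNT, so the order of these demethylases was opposite in the 2 groups. PLOD2 over PLOD1 was 0.0938 and 0.129 in shGLUD1 and 0.0503 and 0.0504 in shNT. For collagen prolyl hydroxylase the same held, with P4HA1 making up 12.3% and 16.5% of P4HA transcripts in shGLUD1 and 6.11% and 8.67% in shNT. EGLN1 over EGLN2 was 0.0233 and 0.0458 in shGLUD1 and 0.0210 and 0.00838 in shNT, with shGLUD1 replicate 1 close to shNT replicate 1. KDM4B over KDM4A lay lower in shGLUD1, at 0.721 and 0.671, than in shNT, at 0.828 and 1.12. PLOD3 over PLOD1, KDM2B over KDM2A and KDM4C over KDM4A overlapped between groups. With 2 libraries in each group an exact permutation test of a ratio cannot go below p = 0.333, so no ratio was tested.

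**Figure D3:**
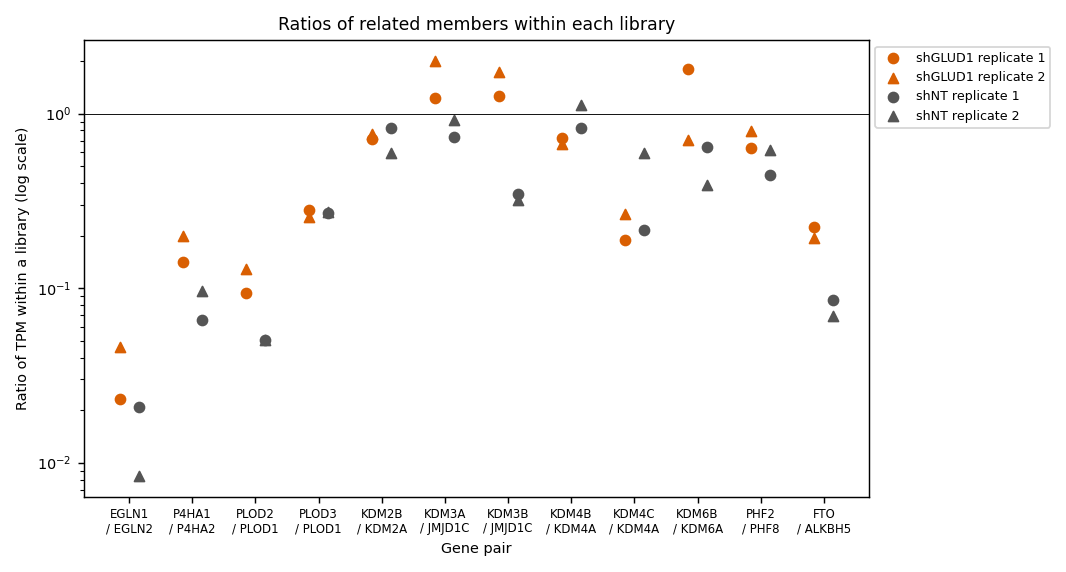
Ratio of TPM of related members within each library, on a log axis, for 12 pairs. Orange marks are the libraries labelled shGLUD1 and grey marks the shNT libraries, with circles for replicate 1 and triangles for replicate 2. KDM3B over JMJD1C lies above 1 in shGLUD1 (1.26 and 1.74) and below 1 in shNT (0.345 and 0.318), while PLOD3 over PLOD1 overlaps.

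Member transcripts were longer than most, and length moved with the change. The median transcript length of the 43 members was 4647 nt, against 2905 nt over all genes tested. Across the 35 members, Pearson's r between log2 fold change and log10 length was 0.53 (Spearman's rho 0.48), and across 12258 genes it was 0.38. Within classes r was lower than over the members, at 0.38 over the 14 histone demethylases and 0.21 over the 11 protein hydroxylases. Genes are not independent replicates, and all points share the same 4 libraries. With genes cut into 5 equal groups by length, the longest, from 5144 nt upward, had a median log2 fold change of 0.95 and 72.7% higher calls, and 15 members, 10 of them histone demethylases, lie in it, with 13 higher. The shortest group had a median of 0.10 and 28.9% higher calls, and its 4 members are ALKBH2, ALKBH3, ALKBH6 and ALKBH7. HIF1AN (13011 nt) and JMJD1C (8666 nt) are among the long transcripts whose changes lay below the median for their length. GC content moved the other way, with r of -0.32 over the members, -0.81 over the 11 protein hydroxylases and -0.19 over all genes. Over the same 11, r between the change and mean level was -0.68. With rescaling and trends in length and GC both removed, 6 of the 11 members that had risen on both scales still rose, KDM5B, ALKBH5, FTO, P4HA1, ASPH and OGFOD1, and all 8 that had fallen after rescaling still fell. In that fit FTO was at 1.14 (limma adjusted p = 0.00445), KDM5B at 0.97 (adjusted p = 0.00719) and OGFOD1 at 0.74 (adjusted p = 0.00771). The part of length or GC in the result was not tested beyond these fits.

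**Figure D4:**
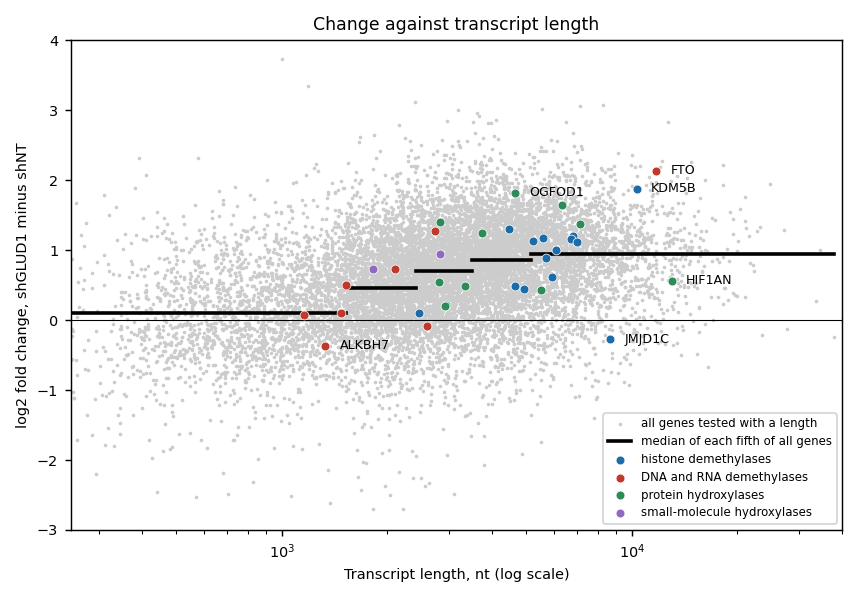
Log2 fold change on TPM + 1 (shGLUD1 minus shNT) against transcript length in nt on a log axis, for 12258 genes tested with a length; 63 of them lie outside the plotted range. Coloured points are members by class, grey points all genes, and black lines the median of each of 5 equal length groups of all genes, which runs from 0.10 to 0.95. FTO and KDM5B lie above the line of the longest group, and HIF1AN and JMJD1C below it.

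Relatives outside the list were read alongside. Of 20 other alpha-ketoglutarate oxygenases 16 were tested. On TPM 6 rose (37.5%, against 56.7% of all genes and 68.6% of the members) and 1 fell. Their median was 0.24, against 0.63 for all genes and 0.73 for the members. After rescaling 2 rose (12.5%, against 22.7% of all genes) and 8 fell, where 28.4% of all genes and 22.9% of the members fell. Their share of rises on TPM thus lay below that of all genes, while that of the members lay near it. Whether the 2 lists differ was not tested. P3H2, a collagen prolyl hydroxylase, was at 1.36 (0.68 after rescaling) and the histone demethylase KDM5C at 1.14 (0.41 after rescaling). HSPBAP1, a JmjC-domain protein with no settled substrate, fell, with 6.18 and 7.0 TPM in shGLUD1 and 15.43 and 14.74 TPM in shNT (log2 fold change -1.09, limma adjusted p = 0.000513; -1.78 after rescaling). The lysine demethylases that use flavin in place of alpha-ketoglutarate both rose on both scales. KDM1A had 37.42 and 46.99 TPM in shGLUD1 and 8.63 and 7.67 TPM in shNT (log2 fold change 2.23, limma adjusted p = 4.75e-06; 1.50 after rescaling). KDM1B had a log2 fold change of 1.06, and 0.61 after rescaling.

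Of 17 enzymes tested that make or use alpha-ketoglutarate, GLUD1 among them, 12 rose on TPM (70.6%, against 56.7% of all genes) and none fell. Their median was 0.70, against 0.63 for all genes. After rescaling 4 rose (23.5%, against 22.7%) and 5 fell (29.4%, against 28.4%), near the shares of all genes. The largest changes were in OGDH, which burns alpha-ketoglutarate in the citric acid cycle (1.73), the mitochondrial transaminase GOT2 (1.50), ornithine aminotransferase OAT (1.29) and cytosolic isocitrate dehydrogenase IDH1 (1.19). All of these also passed after rescaling, OGDH at 0.99 and IDH1 at 0.43. OGDH had 43.21 and 51.39 TPM in shGLUD1 and 14.71 and 12.31 TPM in shNT. Of 7 genes that clear succinate and fumarate, the competing acids, all 7 rose on TPM, against 56.7% of all genes. After rescaling 2 rose (28.6%, against 22.7%) and 2 fell (28.6%, against 28.4%). SDHA, the flavoprotein of succinate dehydrogenase, was at 1.57 (limma adjusted p = 5.05e-06; 0.80 after rescaling), and FH, which hydrates fumarate, at 1.30 (0.55 after rescaling).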

How the data were processed

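Per the labels' protocols, libraries were made from total RNA with the TruSeq V2 kit. The authors deposited one table of TPM, 57820 genes in 4 libraries, each column scaled to the same total. The submitters' processing notes list Bowtie 0.12.2 with the builds hg38 and mm8 and give no role for either; the quantifier is not given in the sources used here, nor the annotation. Because TPM keep no depth, no counting interval can be given. They are shares of one total, so if abundant transcripts drop, every other gene gains.

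Members were matched by symbol; coordinates, lengths and GC content came from a GENCODE annotation on GRCh38 by Ensembl identifier (97.9% of genes tested had a length), and promoters from RefSeq, GRCh38.p14 (40 of 43 members matched, all but ASPH, JMJD6 and P4HA3). Deposited TPM were taken as log2(TPM + 1), and this log2 scale understates changes at low levels. The 12524 genes that averaged 1 TPM or more were fitted with limma 3.58.1 in R 4.3.3 (variance trend, group as the only term, two-sided, Benjamini-Hochberg over all genes tested, threshold 0.05), and again after median-ratio rescaling over 16737 genes. Limma borrows spread across genes (prior of 8.8 degrees of freedom). Tables and figures used Python 3.11.15, pandas 2.3.3 and matplotlib 3.10.9.

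Values per library are given for members past the threshold on both scales, those lower on TPM, and the extremes of each class; some others were added after their values were seen. Up to 4 genes past the threshold are named per related list, not always those with the largest change. Members and lists were chosen with earlier results of these data known. Alternatives were a pseudocount of 0.1, no minimum or a minimum of 5 TPM, rescaling, quantile normalization, no variance trend, a replicate block, removal of length and GC trends, and leaving out each library.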

Additional observations from a re-analysis of the deposited data

How the results depend on the processing

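The depth is unknown and each group has 2 libraries, so the calls rest on a spread shared across genes. Calls depended on the scale between libraries. Of the members, 24 rose on TPM, against 11 with rescaling, 9 with quantile normalization and 6 with rescaling and length and GC trends removed. Leaving out each library gave 19 to 26 on TPM and 6 to 14 with rescaling. On TPM 1 member fell, against 8 with rescaling, 5 with quantile normalization and 11 with rescaling and trends removed. No member fell (0) with no minimum, without a variance trend or with length and GC trends removed on TPM; leaving out each library gave 0 to 1 on TPM and 6 to 7 with rescaling. Over all genes, 7105 rose on TPM, against 4676 with a minimum of 5 TPM, which tests fewer genes, 2845 with rescaling, 2938 with quantile normalization and 2492 with rescaling and trends removed; with rescaling, leaving out each library gave 2380 and 2453 without an shNT library and 2215 and 1716 without an shGLUD1 library. Of all genes, 973 fell on TPM, against 3557, 2764 and 3282 under the last 3 settings, and with rescaling 3027 and 3135 without an shNT library and 3346 and 2810 without an shGLUD1 library. The members' median log2 fold change was 0.73 on TPM, 0.89 with a pseudocount of 0.1, 0.12 with rescaling, 0.16 with quantile normalization and 0.056 with rescaling and trends removed. Without each library it ran from 0.75 to 0.97 on TPM and with rescaling it was 0.17 and 0.22 without an shNT library and 0.21 and 0.17 without an shGLUD1 library. Rescaling combined with removed trends or left-out libraries was chosen after seeing the data.

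The sign turned with rescaling and with quantile normalization in KDM3A (-0.16 and -0.28), KDM8 (-0.43 and -0.57), ALKBH2 (-0.69 and -0.43), ALKBH3 (-0.66 and -0.37), ALKBH6 (-0.26 and -0.064), HIF1AN (-0.17 and -0.075), PLOD3 (-0.56 and -0.25) and JMJD6 (-0.33 and -0.035). It turned with rescaling alone in EGLN2 (-0.23), P4HA2 (-0.27), PLOD1 (-0.56) and PHYH (-0.0145), and with quantile normalization alone in KDM4C (-0.13), KDM6A (-0.039) and ALKBH4 (-0.051). ALKBH7 was at 0.093 with length and GC trends removed on TPM. Leaving out each library gave -0.087 to 0.30 for KDM8, -0.12 to 0.31 for ALKBH3 (both lowest without shGLUD1 replicate 2) and -0.40 to 0.24 for ALKBH1, which was above 0 without shNT replicate 2 (0.11) or shGLUD1 replicate 1. The cause was not tested. Calls on TPM were lost by leaving out 1 library in KDM4B and ALKBH6 (shNT replicate 1), PHF8 and ALKBH4 (shNT replicate 2), ALKBH7, P4HA2 and JMJD6 (shNT replicate 2 or shGLUD1 replicate 2), EGLN1 (shGLUD1 replicate 2) and HIF1AN (3 of the 4 libraries).

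Deviations from the group means were hardly shared between libraries of the same replicate number (correlation 0.04 over 2 pairs). With 2 libraries in each group this cannot exclude that they were paired by culture or batch. With the replicate block, 25 members rose and 1 fell, and 7395 genes rose and 1061 fell; KDM6A alone changed its call, to an adjusted p of 0.0382 by limma.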

Other observations

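Genes that lay down or read the marks removed by these enzymes were read beside the 56.7% of all genes that rose on TPM and the 22.7% that rose after rescaling. Of 18 histone methyltransferases tested, 14 rose (77.8%) and none fell on TPM, with a median log2 fold change of 1.00. With rescaling 6 rose (33.3%) and 1 fell (5.56%, against 28.4% of all genes). NSD2, which dimethylates histone lysines in transcribed chromatin, had 19.23 and 25.39 TPM in shGLUD1 and 4.13 and 4.23 TPM in shNT (log2 fold change 2.16, limma adjusted p = 1.54e-05; 1.47 after rescaling). SUV39H1, a heterochromatin methyltransferase, was at 1.57, DOT1L at 1.51 and KMT2D at 1.44, and all of these also passed after rescaling. Of 9 DNA methylation genes tested, 5 rose (55.6%, at the share of all genes) and none fell on TPM. After rescaling 4 rose (44.4%) and 3 fell (33.3%, against 28.4% of all genes). DNMT1, the maintenance methyltransferase, had 29.03 and 34.12 TPM in shGLUD1 and 10.98 and 7.5 TPM in shNT (1.69, adjusted p = 4.87e-05; 0.96 after rescaling). Its partner UHRF1 was at 1.85 (1.24 after rescaling).

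Writers and readers of methylated adenosine in messenger RNA gave 10 higher and none lower of 12 tested on TPM, and 6 higher and 1 lower after rescaling. METTL3, the catalytic writer, had 21.31 and 27.97 TPM in shGLUD1 and 9.03 and 9.05 TPM in shNT; it was named after its values were seen. FTO over METTL3 within a library was 0.451 and 0.352 in shGLUD1 and 0.181 and 0.139 in shNT. ALKBH5 over METTL3 was 2.007 and 1.828 in shGLUD1 and 2.123 and 2.014 in shNT, so shGLUD1 lay just below shNT without overlap. Of 8 genes of the HIF pathway, 5 rose (62.5%, against 56.7% of all genes) and 1 fell (12.5%, against 7.77%) on TPM. After rescaling 5 rose (62.5%, against 22.7%) and 3 fell (37.5%, against 28.4%). HIF1A had 33.72 and 46.51 TPM in shGLUD1 and 9.0 and 8.84 TPM in shNT (log2 fold change 2.03, limma adjusted p = 1.17e-05; 1.30 after rescaling), and EPAS1 was at 1.31 (0.58 after rescaling). The elongin subunit ELOC fell, at -0.39 (adjusted p = 0.00395; -1.17 after rescaling). Of 20 hypoxia-inducible genes, 15 rose and 4 fell on TPM, and 7 rose and 5 fell after rescaling. LDHA was at 2.18 and CA9 at 1.53 (1.41 and 0.77 after rescaling), while STC2 fell (-1.19 and, after rescaling, -1.96). ADM fell as well (-0.74 and, after rescaling, -1.49). Of 7 partners of the collagen hydroxylases tested, 4 rose (57.1%, against 56.7% of all genes) and 2 fell (28.6%, against 7.77%) on TPM. After rescaling 1 rose (14.3%, against 22.7%) and 3 fell (42.9%, against 28.4%). SERPINH1, the collagen chaperone, had 75.83 and 87.86 TPM in shGLUD1 and 218.31 and 201.42 TPM in shNT (log2 fold change -1.35, adjusted p = 7.85e-06; -2.12 after rescaling), and PPIB was at -0.73 (-1.51 after rescaling).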
